A study of Rattus norvegicus with 6 samples.

Results

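Intermediate filament transcripts of neurons and reactive glia were described in cultured rat hippocampal cells before and after insulin. The 10 genes were chosen by symbol as members of this family, with their measured levels and insulin differences in these libraries already known, so these values are given as a description: Gfap, Vim, Nes, Synm, Nefl, Nefm, Nefh, Ina, Prph and Des. All 10 were found among the 37183 gene symbols of the deposited table, and all had a value in every library. They were read as a glial group (Gfap, Vim and Nes, 3 genes), a neurofilament group (Nefl, Nefm, Nefh, Ina and Prph, 5 genes) and the remaining 2, Synm and Des.

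The study sequenced total RNA from 6 primary rat hippocampal cultures, 3 labelled astrocyte and 3 labelled neuron. Each cell type had a control at 0 h, described both as saline and as untreated, a culture given 200 nM insulin for 6 h and a culture given it for 12 h. The medium had been replaced 4 h before treatment in all cultures, by medium with 2% serum and 5 mM glucose for the astrocytes and by serum-free medium with an insulin-free supplement for the neurons. No control was kept for 6 h or 12 h, so hours of insulin and hours in the new medium cannot be told apart. Neither the strain and age of the animals nor how many contributed to a culture is given in the labels. Each of the 6 groups was 1 library, so no difference below has a replicate check and none was tested.

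Intermediate filaments are rope-like polymers that give cells mechanical strength, and their subunits differ by cell type. Astrocytes build them from vimentin and glial fibrillary acidic protein, and both genes are known to be raised when astrocytes become reactive, while immature neural cells also carry nestin. Neurons assemble neurofilaments from a light, a medium and a heavy chain with alpha-internexin or peripherin, and these polymers fill the axon and set its calibre.

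Levels are in FPKM, which divides fragments by transcript length and by library size, taken back from the deposited log2 values, so that genes can be set beside each other per length. A difference is that of the log2 values of 2 libraries, so 1 is a 2-fold change. A gene entered a comparison with at least 1 FPKM in either library and was called at a difference of 1 or more, and "rose" and "fell" are kept for such calls. A gene below 1 FPKM in 1 library could therefore enter only by being higher in the other. The libraries had been given the same quantiles, and between 22891 and 25528 symbols per library had a value. In each kind of culture the control had the fewest, and the median of all genes compared was above 0 in the insulin libraries, at 0.09 and 0.10 after 6 h and 12 h in the astrocyte-labelled cultures and 0.14 at both times in the neuron-labelled ones.

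Markers of the labelled cell types went partly against the labels. The summed level of 11 astrocyte markers was 46.9 to 52.1 FPKM in the astrocyte-labelled libraries and 213 to 279 FPKM in the neuron-labelled ones. The water channel gene Aqp4 was at most 0.212 FPKM in the former and at least 26.4 FPKM in the latter. Between the controls 8 astrocyte markers entered. In the astrocyte-labelled control 6 of them were at least 2-fold lower (21.9% of all genes) and 1, Fgfr3, was higher (18.7%). Fgfr3 was at 22.1 to 31.0 FPKM in the astrocyte-labelled libraries and at 3.70 to 4.47 FPKM in the neuron-labelled ones. The sum of 13 neuron markers was 4.29 to 4.44 FPKM in the astrocyte-labelled libraries, where Slc17a7 was blank, and 64.2 to 68.7 FPKM in the neuron-labelled ones. The latter also carried 112 to 118 FPKM of 9 oligodendrocyte lineage markers, most of it Olig1 (78.5 to 85.4 FPKM) and Olig2 (21.5 to 25.9 FPKM). Of these markers Cspg4 and Mog were higher in the astrocyte-labelled control, at 1.32 against 0.397 FPKM and 2.21 against 1.69 FPKM. Smooth muscle and pericyte markers (7 genes) summed to 425 to 504 FPKM in the astrocyte-labelled libraries and 4.52 to 10.6 FPKM in the others, and the 5 of 6 fibroblast markers found summed to 66.5 to 86.0 against 2.28 to 2.47 FPKM, the latter nearly all Pdgfra, which oligodendrocyte precursors also express. The libraries are therefore named by their labels only. In such bulk samples, fewer cells of a type and less RNA per cell cannot be told apart.

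The glial genes carried most of the family's transcripts, and their promoters are shown because these 3 genes were above the median of all genes after insulin at both times in the neuron-labelled cultures. At 6 h Gfap and Vim were above that median by only 0.04 and 0.02. RefSeq promoters of assembly GRCr8, which is not the Rnor 6.0 build behind the deposited values, were matched by symbol for 7 of the 10 genes, covering 250 bases before and 50 after the annotated start. The Gfap promoter lies at chr10:88361612-88361911 on the minus strand, that of Vim at chr17:81577011-81577310 on the plus strand and that of Nes at chr2:175736338-175736637 on the plus strand. Capitals mark matches on either strand to 3 promoter motifs. The TATA box was searched as TATAAA and the CCAAT box by the letters of its name. The GC box was searched as GGGCGG, and none of these matches overlapped another.
Gfap: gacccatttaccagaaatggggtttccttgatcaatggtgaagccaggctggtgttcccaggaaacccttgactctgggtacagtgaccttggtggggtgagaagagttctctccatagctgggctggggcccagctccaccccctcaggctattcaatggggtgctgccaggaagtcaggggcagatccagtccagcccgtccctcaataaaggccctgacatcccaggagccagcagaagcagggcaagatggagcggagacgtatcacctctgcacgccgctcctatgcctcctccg
Vim: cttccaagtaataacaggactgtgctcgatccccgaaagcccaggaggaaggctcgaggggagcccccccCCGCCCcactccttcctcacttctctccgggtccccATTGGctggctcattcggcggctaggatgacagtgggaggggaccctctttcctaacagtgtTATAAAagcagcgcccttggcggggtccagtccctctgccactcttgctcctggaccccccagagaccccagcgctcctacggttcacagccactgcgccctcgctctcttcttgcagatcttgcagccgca
Nes: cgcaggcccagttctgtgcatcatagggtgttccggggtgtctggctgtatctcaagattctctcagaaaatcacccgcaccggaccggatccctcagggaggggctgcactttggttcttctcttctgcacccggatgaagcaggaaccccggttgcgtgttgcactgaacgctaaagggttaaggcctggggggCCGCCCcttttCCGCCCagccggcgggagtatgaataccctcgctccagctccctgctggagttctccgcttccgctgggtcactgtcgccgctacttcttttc
The Vim window held 1 match to each of these motifs, the Nes window held 2 GC boxes and the Gfap window held none of them. Among 33469 promoters of the same length, 14.2% held the TATA box letters, 37.5% the CCAAT letters and 33.1% the GC box letters. Neither the AP-1 letters TGANTCA (7.33% of promoters) nor the STAT letters TTCNNNGAA (8.87%) were in any of the 3 windows. The GC content was 58.7% for Gfap, 62.0% for Vim and 60.0% for Nes, against a median of 51.7% over all promoters. No promoter was used here for Nefl, Nefm and Nefh.

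The family was made up differently under the 2 labels. Vim, the vimentin gene, was at 176, 178 and 193 FPKM in the astrocyte-labelled control, 6 h and 12 h libraries and at 23.5, 26.2 and 46.6 FPKM in the neuron-labelled ones. All 3 astrocyte-labelled values lay above all 3 neuron-labelled values, and in the astrocyte-labelled control Vim ranked 82 of 22891 symbols with a value. Gfap was at 6.23, 12.4 and 8.45 FPKM in the astrocyte-labelled libraries and at 96.7, 109 and 134 FPKM in the neuron-labelled ones. Its order was the opposite of that of Vim, with the neuron-labelled libraries high and no overlap. Large gaps between the labels were common, since 40.6% of 7146 genes differed at least 2-fold between the controls. The share of all genes without overlap was not counted.

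Nes, which encodes nestin of neural progenitors and reactive glia, was at 13.4, 15.8 and 16.1 FPKM in the astrocyte-labelled libraries and at 14.4, 20.3 and 35.5 FPKM in the neuron-labelled ones. The groups overlapped, since the neuron-labelled control lay inside the astrocyte-labelled range. Of the summed glial group, Vim made up 90.0% in the astrocyte-labelled control and Gfap 3.18%, whereas in the neuron-labelled control Gfap made up 71.9% and Vim 17.5%. The order from the top was Vim, Nes, Gfap, Nefl in every astrocyte-labelled library. In the neuron-labelled control it was Gfap, Vim, Nefl, Nes, and Nes was above Nefl in both insulin libraries. Without replicates it cannot be said which neighbours in these orders differ beyond their spread.

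**Figure D1:**
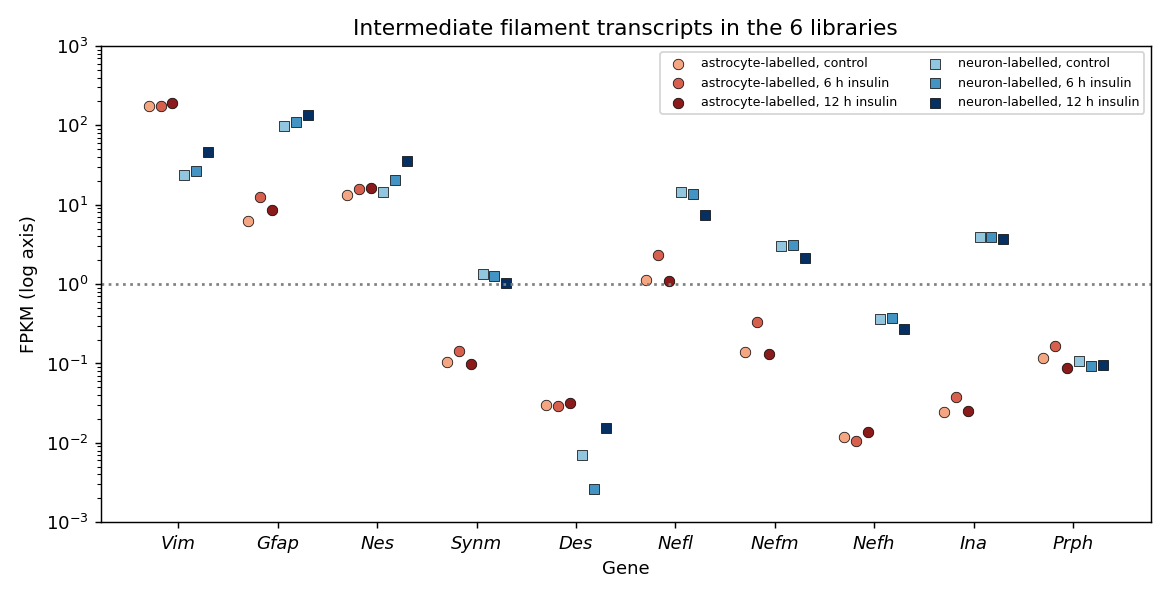
FPKM of the 10 genes on a log axis, with 1 point per library, circles for the astrocyte-labelled and squares for the neuron-labelled libraries, darker with time; the dotted line is 1 FPKM. Vim lies higher in the astrocyte-labelled libraries (176 to 193 against 23.5 to 46.6 FPKM), Gfap and the neurofilament genes Nefl, Nefm, Nefh and Ina lie higher in the neuron-labelled ones, and Nes overlaps.

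Neurofilament transcripts were mostly those of the neuron-labelled libraries. Nefl, the light chain on which the polymer is built, was at 14.7, 13.7 and 7.33 FPKM at 0 h, 6 h and 12 h under the neuron label, and at 1.14, 2.30 and 1.11 FPKM in the astrocyte-labelled ones. Nefm, the medium chain, was at 3.02, 3.13 and 2.11 FPKM in the neuron-labelled libraries and at 0.139, 0.333 and 0.133 FPKM in the astrocyte-labelled ones. For both genes the 12 h library was the lowest of the neuron-labelled 3.

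Ina, the alpha-internexin gene that developing neurons express early, was at 3.91, 3.88 and 3.66 FPKM in the neuron-labelled libraries and at 0.0247, 0.0380 and 0.0252 FPKM in the astrocyte-labelled ones. The neuron-labelled values of Ina stayed within 1.07-fold of each other, the narrowest range of the 10 genes there. Nefh, the heavy chain, which accumulates late as axons mature, did not reach 1 FPKM in any library. It was at 0.367, 0.375 and 0.275 FPKM in the neuron-labelled libraries and between 0.0104 and 0.0137 FPKM in the others. Prph, the peripherin gene of peripheral and some central neurons, was between 0.0932 and 0.106 FPKM in the neuron-labelled libraries and between 0.0879 and 0.165 FPKM in the astrocyte-labelled ones, overlapping. The summed level of 7 markers of peripheral neurons and Schwann cells was 1.00 to 1.47 FPKM and 2.54 to 3.56 FPKM, most of it Pmp22.

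The subunits stood in different proportions to Nefl. For each unit of Nefl FPKM the neuron-labelled control held 0.206 of Nefm, 0.267 of Ina and 0.0250 of Nefh. After 12 h these ratios were 0.287, 0.500 and 0.0374, as Nefl was lower there and Ina close to its control level. In the astrocyte-labelled libraries the Nefm ratio was 0.120 to 0.145 and the Ina ratio 0.0166 to 0.0227. Summed Gfap, Vim and Nes exceeded the summed neurofilament group 137-fold, 72.4-fold and 159-fold at 0 h, 6 h and 12 h under the astrocyte label. In the neuron-labelled libraries the same ratio was 6.10, 7.34 and 16.0, highest at 12 h. Under the astrocyte label Vim made up 86.3% to 90.0% of the summed Gfap, Vim and Nes. Those libraries also carried smooth muscle and fibroblast markers, and which cells held the Vim transcripts was not tested.

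**Figure D2:**
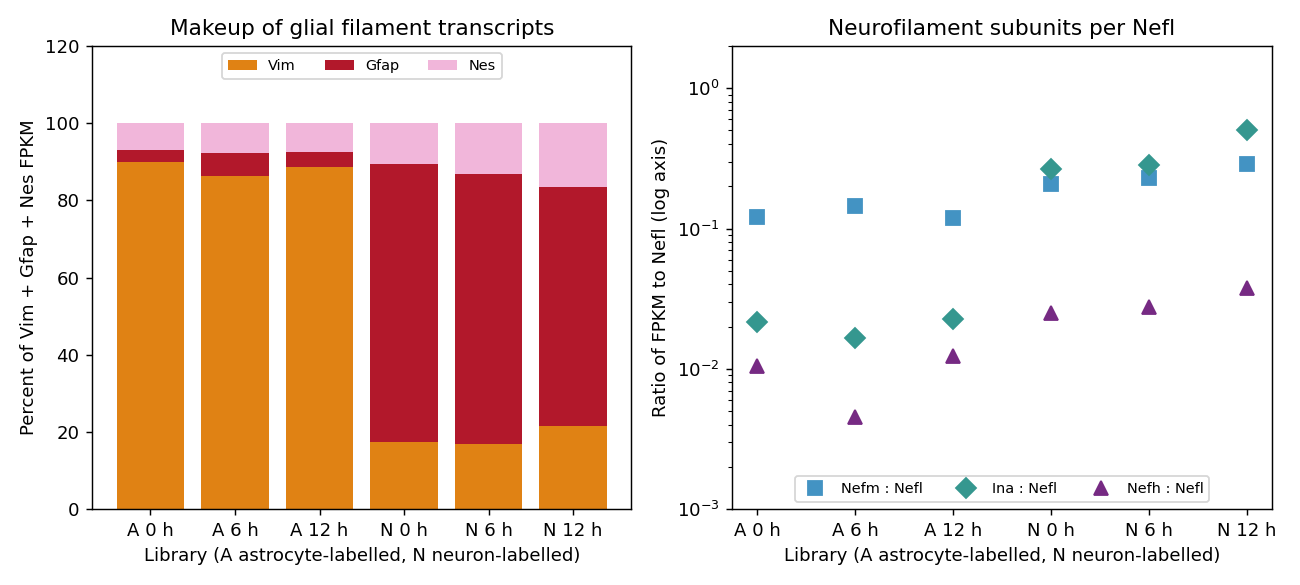
Left, percent of the summed Vim, Gfap and Nes FPKM held by each gene in the 6 libraries (A astrocyte-labelled, N neuron-labelled); right, FPKM of Nefm, Ina and Nefh divided by that of Nefl, on a log axis. Vim fills 86.3% to 90.0% of the astrocyte-labelled bars and Gfap 62.0% to 71.9% of the neuron-labelled ones, and the Ina ratio is 0.267, 0.283 and 0.500 in the neuron-labelled libraries.

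Synm and Des completed the family. Synm, the gene of synemin, a large partner that joins vimentin or desmin filaments, was at 1.33, 1.26 and 1.03 FPKM in the neuron-labelled libraries. It was between 0.0975 and 0.143 FPKM in the astrocyte-labelled ones. Des, which encodes the desmin of muscle cells, was between 0.0289 and 0.0316 FPKM in the astrocyte-labelled libraries and between 0.00265 and 0.0155 FPKM in the neuron-labelled ones. Acta2 and Tagln, smooth muscle markers, were at 54.4 and 353 FPKM in the astrocyte-labelled control. The 6 markers of skeletal and cardiac muscle summed to at most 1.11 FPKM in any library.

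The comparison of the control libraries asks how the 2 kinds of culture differ before insulin. Of the 7 family members that entered, 1 was higher in the astrocyte-labelled control, 5 were higher in the neuron-labelled control and Nes was level. The same size was reached by 40.6% of the 7146 genes compared, 18.7% higher and 21.9% lower in the astrocyte-labelled control, so a large difference was common between these libraries. Vim differed by 2.91 in favour of the astrocyte-labelled control. The differences of the others, astrocyte minus neuron, were -3.96 for Gfap, -3.66 for Synm, -3.68 for Nefl, -4.45 for Nefm and -7.31 for Ina. Nes differed by -0.10. Synm, Nefm and Ina were below 1 FPKM in the astrocyte-labelled control and entered only through the neuron-labelled one, so they could only be higher there. On the log2(FPKM + 1) scale the calls were the same, at smaller sizes of -1.08 for Synm, -1.82 for Nefm and -2.26 for Ina. The median of the 7 was -3.68, against -0.10 for all genes compared. For Ina, 123 of the 7146 genes were further in the same direction, and for Gfap 378. With a floor of 5 FPKM, 3 members were called, Gfap, Vim and Nefl. Nefh, Prph and Des were below 1 FPKM in both controls and did not enter.

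**Figure D3:**
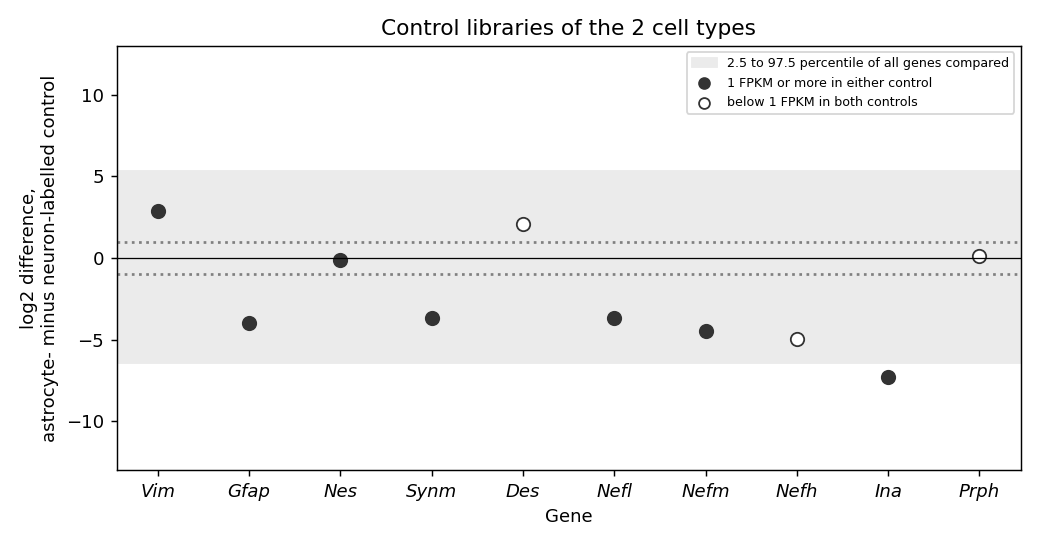
log2 difference of each gene, astrocyte-labelled minus neuron-labelled control; open points are below 1 FPKM in both libraries, dotted lines mark 2-fold and the grey band holds the middle 95% of all genes compared. Vim is at 2.91, Nes at -0.10 and Ina at -7.31, the only filled point outside the band.

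In the astrocyte-labelled cultures after 6 h of insulin, Gfap and Nefl were higher and Vim and Nes were close to their control levels. Nefl was the 1 of 4 members that entered to be called, at a difference of 1.01. Over all 6206 genes 1.05% were called higher (1.93% in either direction), 65 higher and 55 lower, or 41 and 66 once centred on the median of all genes. Gfap lay just short of the size, at 0.995. Centred in that way Nefl was at 0.92 and Gfap at 0.90, so the call of Nefl held on the deposited scale and not after centring, nor with log2(FPKM + 1), where Nefl was at 0.62. Of all genes, 62 were further up than Nefl and 65 further up than Gfap. Nes was at 0.23 and Vim at 0.01, and Vim was below 0 after centring (-0.08). The median of the 4 was 0.61, against 0.09 for all genes compared.

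Below 1 FPKM, Nefm stood at 0.333 FPKM at 6 h against 0.139 FPKM in the control, and Ina, Prph and Synm were also higher than in the control, with differences of 0.62, 0.50 and 0.44. Nefh and Des were lower, at -0.19 and -0.04. At these levels the values have no known depth behind them. With no floor, 1961 of 21513 genes were at least 2-fold higher at 6 h and 912 lower, and the median of all genes was 0.16. Markers of other cells were read beside the result. The neuron markers summed to 4.44 FPKM before insulin and 4.30 FPKM after it, and the oligodendrocyte lineage markers 3.95 and 3.85 FPKM, so neither sum was higher in the library where Nefl was high. Of 5 astrocyte markers that entered, none was called and their median was 0.03, below that of all genes. The other 6 were below 1 FPKM, and 5 of them were higher at 6 h than in the control, where all genes with no floor also lay mostly above 0. Atp1b2, a sodium pump subunit of glia, stood at 0.0807 against 0.0141 FPKM, Aqp4 at 0.212 against 0.0985 FPKM and the glutamate transporter gene Slc1a3 at 0.170 against 0.115 FPKM. Slc1a2, another glutamate transporter gene, differed by 1.05 at no more than 0.00196 FPKM, and Aldh1l1, a folate enzyme, by 0.33, while the bicarbonate transporter gene Slc4a4 was lower, at -0.28. The part of these markers in the values of Gfap and Nefl was not tested.

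After 12 h no member was called in the astrocyte-labelled cultures, where 1.53% of 6221 genes were, 38 higher and 57 lower (28 and 71 when centred). The differences from the control were 0.44 for Gfap, 0.26 for Nes, 0.13 for Vim and -0.04 for Nefl. Between the insulin libraries Nefl fell, by 1.05 from 6 h to 12 h, where 0.511% of 6260 genes were called lower and 0.767% in either direction. Gfap differed by -0.56 in the same comparison, Vim by 0.12 and Nes by 0.03. On the log2(FPKM + 1) scale this Nefl difference was -0.64 and was not called. The Nefl values at 0 h and 12 h were 1.14 and 1.11 FPKM, so both of its calls rest on the single 6 h library.

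In the neuron-labelled cultures Nes was the only family member called, at 12 h. After 6 h no member of 7 was called, where 2.89% of 6610 genes were, 106 higher and 85 lower (71 and 106 when centred). The differences from the control were 0.50 for Nes, 0.17 for Gfap and 0.16 for Vim. Nefm was at 0.05, Ina at -0.01, Synm at -0.08 and Nefl at -0.10. All 4 of these lay below the median of all genes and the 3 glial genes above it, Gfap and Vim by 0.04 and 0.02. The median of the 7 was 0.05, against 0.14 for all genes.

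After 12 h Nes rose by 1.30, from 14.4 to 35.5 FPKM, 1 of 7 members that entered, where 2.39% of 6641 genes were called higher and 3.84% in either direction, 159 higher and 96 lower (109 and 133 when centred). Of all genes, 68 were further up than Nes. Vim was just short of the size at 0.99, and Gfap was at 0.47. Nefl was just short of it on the other side at -0.999, where 96 genes were further down. Centred on the median of all genes, Nefl was at -1.14 and counted as lower, Nes was at 1.16 and Vim at 0.84. Nefm was at -0.52, Synm at -0.37 and Ina at -0.09, and Nefh, below 1 FPKM, at -0.42. The median of the 7 was -0.09, against 0.14 for all genes.

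The contrast between the groups was taken as the median difference of the neurofilament genes minus that of Gfap, Vim and Nes. It was -1.51 at 12 h against the control in the neuron-labelled cultures, from medians of -0.52 over 3 neurofilament genes and 0.99 over the 3 glial genes. At 6 h it was -0.18. From 6 h to 12 h no member was called, where 1.07% of 6662 genes were. Vim differed by 0.83 and Nes by 0.80 in that interval, Gfap by 0.30, Nefl by -0.90 and Nefm by -0.57. In the astrocyte-labelled cultures the contrast was 0.78 at 6 h and -0.30 at 12 h, with Nefl as the only neurofilament gene that entered, and the 6 h value was 0.39 with no floor and 0.40 on the log2(FPKM + 1) scale. Both times are set against 1 control library in each kind of culture.

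**Figure D4:**
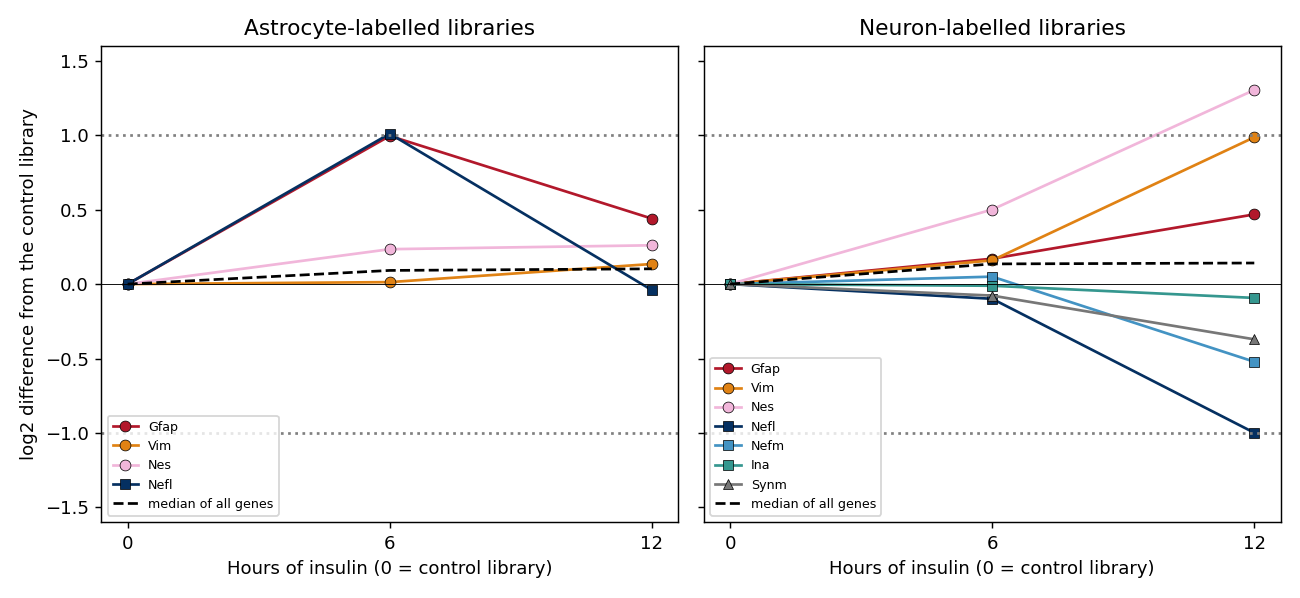
log2 difference from the control library of the same label at 0, 6 and 12 h, for the genes that entered the comparisons; the dashed line is the median of all genes and dotted lines mark 2-fold. On the left Nefl and Gfap peak at 6 h (1.01 and 0.995); on the right Nes and Vim reach 1.30 and 0.99 at 12 h while Nefl reaches -0.999.

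Levels of cell markers moved beside these values in the neuron-labelled libraries, and their part in the result was not tested. Of 8 neuron markers that entered at 12 h none was called, 4 were above 0 and 4 below, and the median was 0.05. Tubb3, a neuronal tubulin, was at 30.0, 32.5 and 33.7 FPKM, whereas Gad1, which makes GABA, was at 5.78, 5.38 and 3.38 FPKM and Eno2, a neuronal enolase, at 8.26, 6.74 and 5.03 FPKM. Astrocyte markers were lower while Gfap, Vim and Nes were higher, with 7 of 8 below 0, none called and a median of -0.36. Glul, glutamine synthetase, was at 106, 106 and 77.7 FPKM, and the gap junction gene Gja1 at 22.6, 21.3 and 16.1 FPKM. The smooth muscle and pericyte markers summed to 4.52, 6.73 and 10.6 FPKM, nearly all of it Tagln, which rose by 1.25 at 12 h and was the only marker of the 7 that entered. Acta2 stood at 0.00209, 0.00679 and 0.0149 FPKM and Cnn1, the calponin gene, at 0.00311, 0.00757 and 0.0282 FPKM, highest at 12 h, and Rgs5 was blank in the control and 12 h libraries. With no floor, 3252 of 22690 genes were at least 2-fold higher at 12 h than in the control and 947 lower. The neural stem and radial glia markers (6 genes) summed to 59.8, 76.1 and 72.0 FPKM. The 4 ependymal markers summed to 1.37, 1.39 and 2.23 FPKM, and to at most 0.0724 FPKM in the astrocyte-labelled libraries. Microglia and endothelial markers (6 genes each) summed to at most 0.960 and 0.547 FPKM in any library.

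Genes known to be raised in reactive astrocytes were read as a list of 32, of which 31 were found. In the neuron-labelled cultures 5 entered at 12 h, of which 2 rose and none fell, where 2.39% of all genes compared were called higher. Of the 5, 4 were above 0 and 1, Amigo2, below, and the median was 0.87 against 0.14 for all genes. Cd44, a hyaluronan receptor, rose by 1.41, from 0.632 to 1.68 FPKM, and S100a10, a partner of annexin A2, by 1.82, from 0.490 to 1.73 FPKM. Cd44, S100a10 and Psmb8 (0.908 to 1.22 FPKM) were below 1 FPKM in the control and entered only through the 12 h library. They could only be above 0, and the count and median of the 5 include them. S1pr3, a sphingosine-1-phosphate receptor, was at 5.62, 7.87 and 10.3 FPKM and differed by 0.87. At 6 h 3 entered, none called, with a median of 0.49. In the astrocyte-labelled cultures 10 entered at each time and none was called, with medians of 0.21 and 0.09. There S1pr3 was at 3.26, 6.19 and 5.14 FPKM, and Timp1, a metalloproteinase inhibitor, at 10.0, 6.64 and 6.41 FPKM. S100a10 was at 35.8, 33.6 and 37.1 FPKM there, and Emp1, an epithelial membrane protein gene, at 30.9, 27.1 and 33.9 FPKM, against at most 0.209 FPKM in the neuron-labelled libraries.

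Known upstream regulators of the glial genes were read as a list of 22, of which 21 were found. In the neuron-labelled cultures at 12 h all 12 that entered were above 0 and 11 above the median of all genes, with none called and a list median of 0.31. Of these, Notch1 (0.883 to 1.08 FPKM) and Bmpr1a (0.889 to 1.003 FPKM) entered only through the 12 h library. They could therefore only be above 0. Hes1, a Notch target, was at 2.38, 3.23 and 4.70 FPKM and lay just short of the size at 0.98. Id1, an inhibitor of differentiation factors, was at 3.92, 4.46 and 5.56 FPKM. Il6st, the shared receptor chain of the interleukin-6 family, was at 2.41, 2.77 and 2.97 FPKM. At 6 h 6 of 10 were above 0 (median 0.20). In the astrocyte-labelled cultures none of 8 was called at either time, with medians of 0.07 and 0.01. Id1 was at 15.5, 26.4 and 17.0 FPKM there and Id3, of the same family, at 67.4, 105 and 78.3 FPKM, so both were highest at 6 h, the library in which Gfap was highest among the astrocyte-labelled 3. Of the 8 that entered at 6 h, 5 were above 0 and 3 below, and a link of any of them to Gfap was not tested.

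Other intermediate filament genes, 16 keratins, lamins and lens filament genes, were low. At most 2 reached 1 FPKM in a library, and none of those that entered was called after insulin. Lmna, which encodes the nuclear lamins A and C, was at 10.9, 13.1 and 12.5 FPKM in the astrocyte-labelled libraries and at 1.82, 2.22 and 2.89 FPKM in the neuron-labelled ones. It differed by 0.67 at 12 h in the latter. Lmnb2, a B-type lamin gene, was at 0.996, 1.30 and 1.28 FPKM in the astrocyte-labelled libraries, and Lmnb1, another, did not exceed 0.997 FPKM in any library. The keratin gene Krt8 did not exceed 0.310 FPKM in any library.

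Proteins that bind, fold or clear filaments were read as a list of 13. None of the 5 that entered in the astrocyte-labelled cultures and none of the 3 in the neuron-labelled ones was called after insulin. Ubb, a ubiquitin gene, was the most abundant, at 174, 164 and 177 FPKM in the astrocyte-labelled libraries and at 327, 331 and 291 FPKM in the neuron-labelled ones. Plec, the cytolinker plectin, was at 7.24, 6.30 and 7.56 FPKM in the astrocyte-labelled libraries and at 0.676, 0.628 and 0.990 FPKM in the neuron-labelled ones. Hspb1, a small heat-shock protein, was at 47.8, 51.6 and 52.5 FPKM and at 3.87, 4.40 and 6.77 FPKM, and differed by 0.81 at 12 h in the neuron-labelled cultures. Macf1, a cytolinker of actin and microtubules, was at 2.84, 1.68 and 2.26 FPKM and at 0.846, 1.06 and 1.04 FPKM. Against the neuron-labelled control Macf1 entered only through the insulin libraries, so it could only be above 0 there. The list medians were -0.17 and 0.03 in the astrocyte-labelled cultures at 6 h and 12 h and 0.19 and 0.30 in the neuron-labelled ones.

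A list of 13 genes held kinases that phosphorylate neurofilaments, motors that carry them and 2 subunits of the phosphatase PP2A (Ppp2ca and Ppp2r2b). None of those that entered was called after insulin in either kind of culture, with 7 and 10 entering. Their medians were 0.00 and 0.09 in the astrocyte-labelled cultures at 6 h and 12 h and 0.13 and 0.09 in the neuron-labelled ones. Cdk5r1, the activator of the neuronal kinase Cdk5, was at 61.8, 54.3 and 50.8 FPKM in the neuron-labelled libraries and at most 0.425 FPKM in the others. Kif5b, a kinesin heavy chain, was at 11.9, 10.6 and 15.1 FPKM in the astrocyte-labelled libraries and at 3.81, 5.78 and 5.75 FPKM in the neuron-labelled ones. Mapk3, the kinase ERK1, was at 7.63 to 8.30 FPKM and at 2.26 to 2.501 FPKM, and Dync1h1, the heavy chain of the retrograde motor dynein, at 3.30 to 3.91 FPKM and at 3.99 to 4.92 FPKM.

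Genes with the most similar pattern were sought among 1672 others that had a value in all libraries and reached 5 FPKM in 1 of them, by the root mean square difference of log2 values centred on each gene's mean over the 6 libraries. This distance mostly reflects the gap between the cell type labels. For Vim the nearest were Arpc1b (0.10), Efemp2 (0.11), Lmna (0.17), Cdc42ep1 (0.19) and Gpx8 (0.19). Arpc1b, a subunit of the actin-nucleating Arp2/3 complex, was at 8.45, 8.37 and 8.76 FPKM in the astrocyte-labelled libraries and at 1.02, 1.40 and 2.40 FPKM in the neuron-labelled ones. For Gfap they were Gpm6b (0.19), Apc2 (0.25), Sox21 (0.26), Fabp7 (0.27) and Pou3f4 (0.28), of which Fabp7, the brain fatty acid-binding protein of radial glia and astrocytes, was at 4.94, 5.84 and 4.14 FPKM and at 54.6, 71.3 and 65.7 FPKM. For Nes they were Txnrd1 (0.17), Nfkbia (0.20), Cd63 (0.22), Riok3 (0.22) and Atp6v1d (0.23). Txnrd1, thioredoxin reductase, was at 3.23, 3.50 and 3.81 FPKM and at 4.09, 6.06 and 7.68 FPKM. For Nefl the nearest were Pdxp (0.32), Atp1b1 (0.33), Ttyh3 (0.34), Aplp1 (0.35) and Dos (0.35), farther than the nearest genes of the other 3. Atp1b1, a sodium pump subunit, was at 14.6, 15.4 and 10.9 FPKM in the neuron-labelled libraries.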

How the data were processed

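RNA of 6 primary rat hippocampal cultures, 1 library in each of 6 groups, was sequenced with a strand-specific, ribosomal RNA-depleting library kit, per the labels' protocols. The single table the authors deposited holds log2 FPKM, quantile-normalised across the libraries. Unit and steps are given by the table's name, and the 6 columns had the same quantiles. Base 2 was settled from Rn45s, whose highest value, times its 8.679 kb length, would exceed the whole library as a natural log and stands for 113107 fragments in the FPKM library unit as a log2. Build Rnor 6.0, Partek 6.5 and bcl2fastq 2.17.1.14 come from the submitters' processing notes. The aligner and annotation used: not given in the sources used here. Without read counts, depth and counting error are unknown.

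Of 37185 rows, 2 repeated symbols were reduced to the row of higher mean, and a blank was no value. Per-sample columns left unused numbered 0. With 1 library per group, no test was made. Differences are of deposited log2 values, with a floor of 1 FPKM in either library and a size of 2-fold. Alternatives were log2(FPKM + 1), no floor, a floor of 5 FPKM, centring on all genes or those at 5 FPKM or more, a 1.5-fold size, blanks at the library's lowest value and, added after seeing the data, quantiles shared again over the 19471 symbols with 6 values. The members and lists were chosen with earlier results of these data known. Genes named are the 10 members, the markers and the 5 nearest in pattern of Gfap, Vim, Nes and Nefl. Of each related list, the called genes and the 4 of highest mean FPKM are named. Amigo2, Psmb8, Notch1, Bmpr1a, Ppp2ca and Ppp2r2b were chosen after their values were seen. Promoter sequences came from RefSeq (GRCr8). Python 3.11.15, pandas 2.3.3, numpy 2.4.6 and matplotlib 3.10.9 were used.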

Additional observations from a re-analysis of the deposited data

Results flagged for a closer look

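After 6 h of insulin, Nefl was above its control in the astrocyte-labelled library and slightly below it in the neuron-labelled one. The difference from the control was 1.01 in the astrocyte-labelled library, from 1.14 to 2.30 FPKM, and -0.10 in the neuron-labelled library, from 14.7 to 13.7 FPKM. The first was called and fell short of 2-fold once centred (0.92), and the second was not called. With 1 library per group this difference between the cultures was not tested.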

How the results depend on the processing

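No paired analysis was possible because each group had 1 library. The number of members called in the controls' comparison was 6 and became 3 with a floor of 5 FPKM, and the neurofilament minus glial contrast there, -4.35, was -2.17 with log2(FPKM + 1). For astrocyte-labelled cultures at 6 h it was 1 and became 0 with log2(FPKM + 1), with a floor of 5 FPKM, under either centring and with quantiles shared again, and 2 with no floor or a 1.5-fold size, and the contrast, 0.78, was 0.40 with log2(FPKM + 1) and 0.39 with no floor. From 6 h to 12 h it was 1 and became 0 with log2(FPKM + 1) or the 5 FPKM floor and 2 with no floor, and the contrast, -1.08, was -0.67 with log2(FPKM + 1) and -0.94 with no floor. For neuron-labelled cultures at 6 h the number was 0 and became 1 (Des) with no floor. At 12 h it was 1 and became 2 with no floor (Des added), and 2 under either centring or with quantiles shared again (Nefl added), and 3 at 1.5-fold. From 6 h to 12 h it was 0 and became 1 with no floor (Des) and 3 at 1.5-fold. The other 78 alternative values of these counts and contrasts stayed within 1.5 times. At 12 h in the neuron-labelled cultures the contrast ranged from -1.99 to -1.33. No called difference changed sign. Depth is unknown, so values below 1 FPKM carry no stated precision. The log2(FPKM + 1) scale shrinks differences of low genes by construction, and the cause of the other shifts was not tested.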
